A study of Mus musculus with 127 samples.

Results

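The cytosolic ribosomal protein genes are the nuclear genes for the protein subunits of the ribosome. They were picked by symbol: a name in the Rpl, Rps, Rplp or Rpsa series, without the Rps6k kinases, and a mean of 10 CPM or more over all mouse-level libraries, where CPM is a count scaled to its library's total. The symbol pattern matched 84 of the 23366 genes in the table, and 81 of them passed the level, 33 of the small (40S) subunit and 48 of the large (60S) subunit. The level alone used measured values. The members nearest to it were Rps4y2 with a mean of 13.7 CPM, Rpl34 with 22.4 CPM and Rpl30 with 34.2 CPM. Just outside lay Rpl10l with 0.590 CPM, Rpl3l with 0.405 CPM and Rpl39l with 0.102 CPM, paralogs of Rpl10, Rpl3 and Rpl39.

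The libraries were SMART-seq2 libraries of polyadenylated RNA from mouse bone marrow cells sorted into 3 populations: stem cells of long-term (LT) and of short-term (ST) repopulating type, and multipotent progenitors (MPP). Cells were cultured with 100 ng/ml LPS, a bacterial lipopolysaccharide, and 1 µg/ml Pam3csk4, a synthetic lipopeptide, which are ligands of the innate receptors TLR4 and TLR2. Young mice 1, 2 and 3 and old mouse 2 gave cells at 0 h and after 0.5, 1, 2, 4, 8 and 12 h with both ligands, while young mouse 4 and old mouse 4 gave cells at 0, 2, 4 and 8 h without ligand. The labels give age only as young or old, and they number the animals, so each animal counts as 1 replicate and the same animal supplied every time point of its course. Since the mice without ligands were never among those with ligands, mouse and ligand cannot be told apart.

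A ribosome is built from ribosomal RNA and a fixed set of proteins, each needed in about equal number, and its production is among the largest costs of a growing cell. Most ribosomal protein transcripts begin with a terminal oligopyrimidine (TOP) tract, through which mTOR signalling controls their translation as a group. In haematopoietic stem cells the rate of protein synthesis is known to be low and tightly held, and loss of a copy of single ribosomal protein genes causes inherited anaemias. Free Rpl5 and Rpl11 bind Mdm2 and so stabilise p53, and Rpl22 and its paralog Rpl22l1 are known to act differently in blood cell development.

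With near-empty libraries dropped and repeats of a sample summed, 108 mouse-level libraries remained, 75 from young and 33 from old mice, with 990831 to 11764593 counts each and 6268 to 14107 detected genes. Markers of the sort at 0 h followed the labels in part. Slamf1, a stem cell receptor, had medians of 26.7, 0 and 0.774 CPM in LT, ST and MPP libraries but was at 0 in the lowest LT library, and Flt3, a progenitor receptor, had medians of 32.5, 152 and 345 CPM. Procr, another stem cell receptor, was not highest in LT, with medians of 15.7, 54.1 and 17.9 CPM, and Cd48, which marks progenitors, had 67.7, 63.5 and 107 CPM. The 6 late neutrophil granule genes were present in most libraries and took 0.00248% to 7.86% of the counts of the libraries with ligands, with young mouse 3 at the low end.

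Stretches upstream of 5 members that the results turn on are shown to let the reader compare members that moved with the group and members that did not. They are RefSeq promoter windows on GRCm38.p6 from 100 bases before to 15 bases after the annotated start, and capitals mark a motif found by search. Rps15 (chr10:80292331-80292445, plus strand) and Rps18 (chr17:33955651-33955765, minus strand) followed the other members most closely, Rpl22 (chr4:152325626-152325740, plus strand) had the largest late fall among the members that passed the test with the mouse as a block, and Rps27l (chr9:66945986-66946100, plus strand) and Rpl7l1 (chr17:46782642-46782756, minus strand) were among the few that did not follow the group.
Rps15: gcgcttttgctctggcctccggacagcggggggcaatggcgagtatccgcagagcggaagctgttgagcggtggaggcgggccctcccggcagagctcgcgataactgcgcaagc
Rps18: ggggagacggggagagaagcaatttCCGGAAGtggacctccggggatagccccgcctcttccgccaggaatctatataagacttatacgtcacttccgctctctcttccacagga
Rpl22: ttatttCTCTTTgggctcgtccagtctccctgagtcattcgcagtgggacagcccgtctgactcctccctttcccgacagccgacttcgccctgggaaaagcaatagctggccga
Rps27l: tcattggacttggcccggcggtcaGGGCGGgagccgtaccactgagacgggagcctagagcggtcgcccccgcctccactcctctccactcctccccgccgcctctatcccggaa
Rpl7l1: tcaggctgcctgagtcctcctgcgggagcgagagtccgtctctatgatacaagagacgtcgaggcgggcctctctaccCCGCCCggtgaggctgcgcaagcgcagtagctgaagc

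Promoter windows of 300 bases were given for 60 of the 81 members. The ETS-type motif CCGGAAG, searched on both strands, lay in 24 of the 60, against 9.12% of the 27025 windows of all genes. The pyrimidine run CTCTTT on the gene's strand lay in 22 (36.7%) against 12.0%, and GGGCGG, the core of an Sp1 site, on either strand in 37 (61.7%) against 35.9%. AAGATGGC, as in a YY1 site, lay in 5 (8.33%) against 2.88%, and TATAAA on the gene's strand in 6 (10.0%) against 8.88%. These are letter matches and not measured binding. The late changes described next had nearly the same median with and without the CTCTTT run: −0.49 and −0.49 in LT, −0.70 and −0.74 in ST, and −0.53 and −0.50 in MPP, on the log2 scale. For CCGGAAG the medians were −0.52 and −0.47, −0.75 and −0.70, and −0.62 and −0.47.

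The 81 members together took a smaller share of the counts from 4 h on with ligands. In LT the starting share was 6.04%, 11.3% and 9.46% for young mice 1, 2 and 3, and the share at 12 h was 3.24%, 6.44% and 6.74%. The LT library of young mouse 1 at 12 h carries v1 in its column name, a mark the labels do not explain. Its 0 h libraries do not carry it, so every LT change of this mouse from 0 h to 12 h crosses that mark. ST libraries started at 6.15%, 12.2% and 9.67% and ended at 3.73%, 5.43% and 5.60%. MPP libraries started at 8.14%, 12.5% and 10.0% and ended at 3.82%, 6.88% and 5.77%. Every mouse was lower at 12 h than at its own 0 h in every cell type; the 0 h and 12 h values overlapped in LT, where mouse 1 began below the end of the other two, and not in ST or MPP. As means over the 3 mice, the LT share was 8.92% ± 2.65 (SD, n = 3) at 0 h, 7.20% ± 2.95 at 4 h, 5.66% ± 1.94 at 8 h and 5.47% ± 1.94 at 12 h. The corresponding ST means were 9.34% ± 3.03, 6.59% ± 2.45, 5.21% ± 1.32 and 4.92% ± 1.03, and the MPP means 10.2% ± 2.16, 8.12% ± 2.90, 6.05% ± 1.85 and 5.49% ± 1.55. Because these are shares of a bulk library, fewer cells of a type and less RNA of these genes per cell cannot be told apart.

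**Figure D1:**
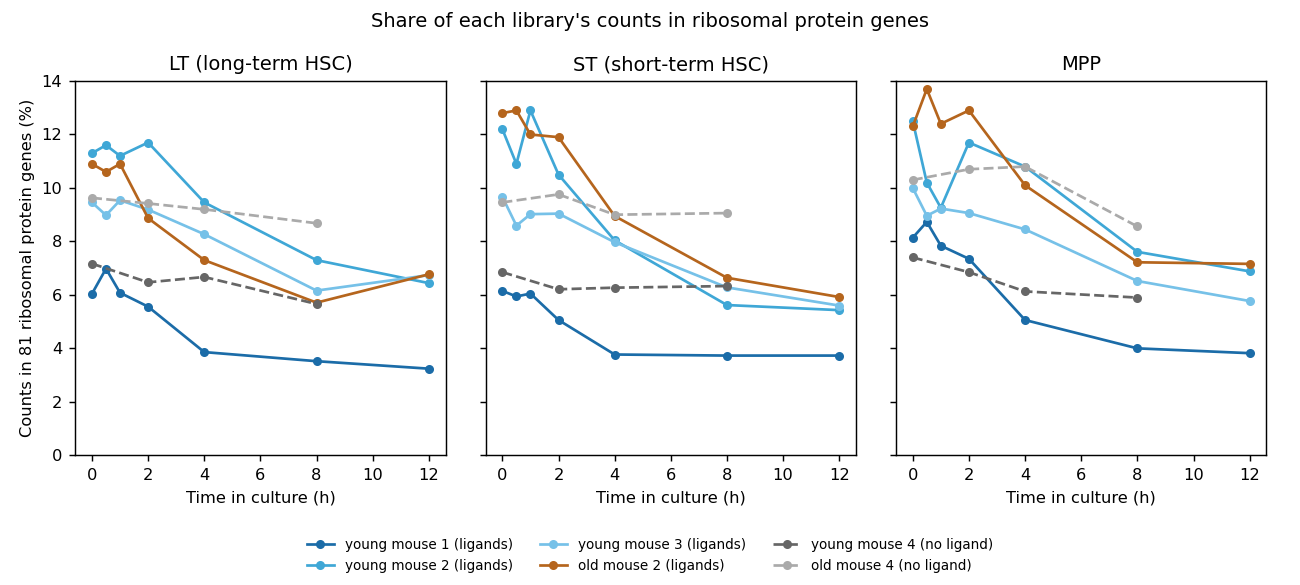
Percentage of each mouse-level library's counts in the 81 ribosomal protein genes (vertical axis) against hours in culture (horizontal axis), with 1 line per mouse and 1 panel per cell type; solid lines are mice with ligands and dashed lines mice without. In the LT panel the line of young mouse 1 drops from 6.04% to 3.24% over 12 h, where its last library is marked v1. That of young mouse 2 drops from 11.3% to 6.44%, and the dashed line of young mouse 4 drops from 7.17% to 5.66% over 8 h.

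The first 2 h showed little of this. Mean LT shares were 9.20%, 8.94% and 8.80% at 0.5, 1 and 2 h, mean ST shares 8.47%, 9.32% and 8.20%, and mean MPP shares 9.28%, 8.78% and 9.36%. In a model of the 0.5, 1 and 2 h libraries against 0 h (edgeR's quasi-likelihood test with Benjamini-Hochberg adjustment), 0 of the 81 members were called in any cell type, against 0.322%, 0.263% and 0.227% of all 13678 genes tested in LT, ST and MPP. DESeq2 called 0 members too, while it called 2.83%, 1.75% and 0.907% of all genes, and so did edgeR with the mouse as a replicate block, which called 1.88%, 1.00% and 0.680%. With edgeR 0 members had an unadjusted p under 0.05, against 8.00%, 5.40% and 2.36% of all genes. The median early changes of the members were 0.06, −0.03 and −0.06. With DESeq2's size factors in edgeR they were 0.03, −0.14 and −0.15, and the members below 0 went from 14, 50 and 60 to 28, 76 and 77 of 81, with 0 called. Counted within mice, 12 members in LT, 44 in ST and 42 in MPP were below 0 h in each of the 3 mice, against 32.4%, 35.0% and 45.1% of genes with 10 CPM or more. The library of young mouse 2 MPP at 1 h stood apart, with all 81 members below its 0 h library and a median change of −0.50 in log2(CPM + 1).

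The late comparison set the mean of 4, 8 and 12 h against 0 h in young mice 1, 2 and 3. The change of the median member, as log2, was −0.50 for LT, −0.73 for ST and −0.54 for MPP, and 80 of 81 members were negative in each cell type. Without the libraries with fewer than 8000 detected genes the LT median was −0.30, with 69 members negative. The ST and MPP medians were then −0.53 and −0.43, with 80 negative in each. This minimum took out all late LT libraries of young mouse 1, and those of young mouse 2 at 8 and 12 h. So LT at 8 and 12 h was young mouse 3 alone, while LT at 0 h held all 3 mice. Over all genes tested the medians were −0.44, −0.42 and −0.26, and over the 1810 genes with a mean of 100 CPM or more, which have levels nearer to those of the members, they were 0.01, 0.06 and 0.18. With all libraries treated as independent, also those of the same mouse, edgeR's quasi-likelihood test with Benjamini-Hochberg adjustment called 0 of 81 members in each cell type. It called 2.87%, 1.57% and 0.534% of all genes. Unadjusted p was under 0.05 for 13, 33 and 12 of the 81 members, against 16.1%, 16.3% and 8.39% of all genes, so the LT count was at the share of all genes. The lowest adjusted p were 0.051 for Rpl29 in LT, 0.062 for Rpl22 in ST and 0.18 for Rpl11 in MPP. DESeq2 called 1, 6 and 3 members lower, and 4.47%, 5.69% and 1.21% of all genes.

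Each mouse supplied all its time points, and the members of 1 mouse deviated together. With the mouse added as a replicate block, edgeR's quasi-likelihood test called 35 of 81 members lower in LT, 58 in ST and 40 in MPP, and 0 higher. Of all genes tested, 7.22%, 6.57% and 3.52% were called lower in this fit, and of the genes with a mean of 100 CPM or more 6.24%, 5.75% and 4.25%. The block gives each mouse 1 level over all cell types and times. Its errors and p therefore measure spread between the 63 libraries, not how the late change varies among the 3 mice. The same 30 members fell in all 3 cell types, 59 fell in at least 1, and 22 in none. The shares of all genes that meet these joint rules were not counted. Both subunits were included: 11 of 33 small-subunit and 24 of 48 large-subunit members fell in LT, 25 and 33 in ST, and 14 and 26 in MPP. The counts depended on single mice. Without young mouse 2 they were 1, 3 and 4 (0.675%, 1.23% and 0.958% of all genes), without young mouse 1 they were 19, 48 and 8 (2.31%, 2.34% and 0.339%), and without young mouse 3 they were 23, 22 and 4 (8.81%, 1.45% and 0.228%). Leaving out the libraries with fewer than 8000 detected genes gave 50 in ST and 36 in MPP (4.56% and 2.68%). In LT this left young mouse 3 alone at 8 and 12 h, so no LT count is given. DESeq2's size factors gave 36, 62 and 61 (7.29%, 6.93% and 4.32%).

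**Figure D2:**
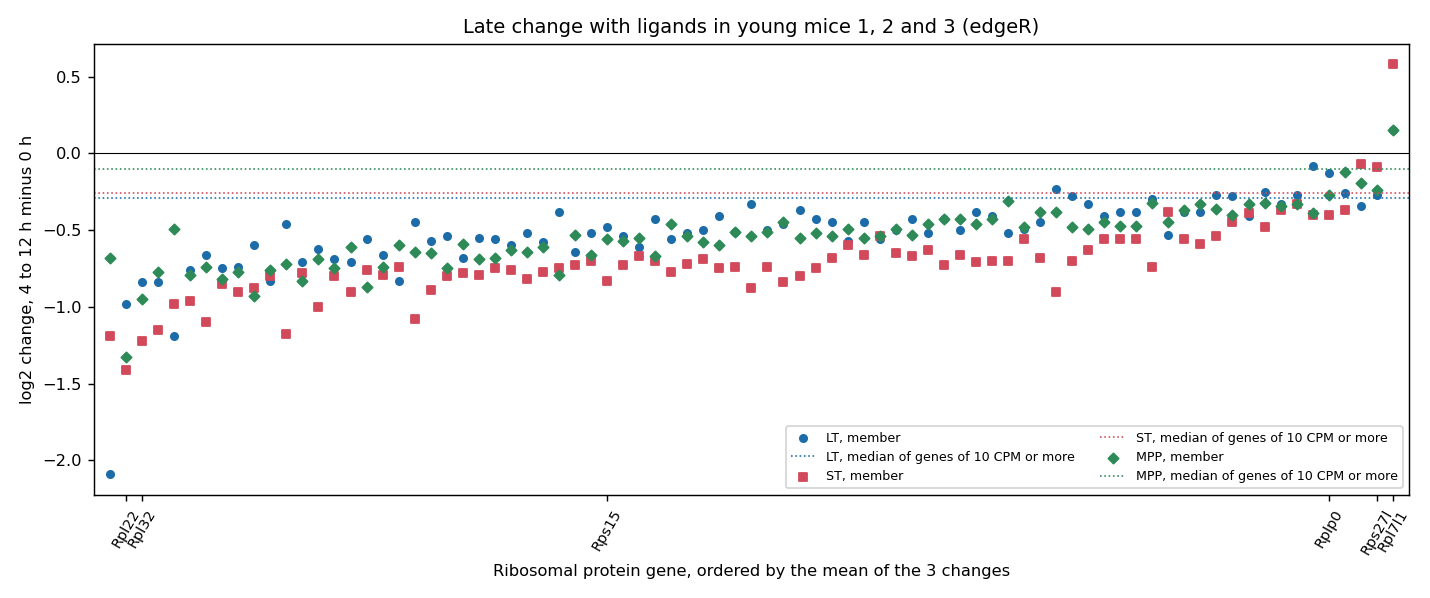
Log2 change (vertical axis) of each of the 81 members (horizontal axis, by rank of the mean of the 3 cell types, with 6 members named) between 0 h and 4 to 12 h with ligands, fitted with edgeR on young mice 1, 2 and 3; symbols are cell types and dotted lines the medians of all genes with a mean of 10 CPM or more. In each cell type 80 of 81 members lie below 0, and the members' medians of −0.50, −0.73 and −0.54 compare with dotted lines at −0.29, −0.26 and −0.10.

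Direction could also be read within each mouse, as the mean log2(CPM + 1) at 4, 8 and 12 h less the same mouse's 0 h value. Of the 81 members, 78 in LT, 78 in ST and 80 in MPP were lower in each of young mice 1, 2 and 3. Of the 8859 genes with a mean of 10 CPM or more, 37.6%, 40.3% and 44.8% met the same condition. The exceptions were Rpl7l1 in all 3 cell types and Rps27l and Rps4y2 in LT and ST. In LT the median change of the members was −0.88, −0.55 and −0.49 for mice 1, 2 and 3, and that of genes with 10 CPM or more −1.06, −1.03 and −0.18. So in LT of mice 1 and 2 the members lay above that wider set, and in mouse 3 below it. The late LT libraries of mice 1 and 2 had 6268 to 8463 detected genes, against 10120 and 12332 at 0 h. Those of mouse 3 had 11510 to 11964, against 12161. The part of detection in this contrast between mice was not tested. In ST the member medians were −0.73, −1.02 and −0.63 against −0.74, −0.46 and −0.49, and in MPP −0.95, −0.59 and −0.63 against −0.60, −0.29 and −0.14.

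Rpl22, a large-subunit protein that also binds messenger RNA, had the largest called fall in every cell type. Its LT levels were 166, 358 and 348 CPM for young mice 1, 2 and 3 at 0 h, and 76.8, 128 and 199 CPM at 12 h. The 12 h LT library of mouse 1 carries v1 in its name, unlike its 0 h libraries. Such libraries hold less of the short members, described below, and Rpl22, at 474 nucleotides, is 1 of them. ST levels started at 125, 427 and 421 CPM and ended at 32.2, 104 and 128 CPM. MPP levels started at 296, 445 and 427 CPM and ended at 89.0, 163 and 125 CPM. Mouse 1 was the lowest at both times in all cell types, and each mouse ended below its own start. With the replicate block, edgeR's quasi-likelihood test gave log2 changes (± SE) of −0.97 ± 0.26, −1.41 ± 0.26 and −1.39 ± 0.26 for LT, ST and MPP, with Benjamini-Hochberg adjusted p of 0.015, 4.4e-04 and 5.8e-04. Old mouse 2 showed the same course, with Rpl22 at 350 and 156 CPM in LT, 420 and 77.0 CPM in ST and 464 and 172 CPM in MPP.

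Its paralog Rpl22l1, which can take the place of Rpl22 in the ribosome, did not pass the test in any cell type. With the block and edgeR, its changes were −0.49 ± 0.30, −0.85 ± 0.30 and −0.49 ± 0.30 for LT, ST and MPP (adjusted p = 0.36, 0.063 and 0.49). The ratio of Rpl22 to Rpl22l1 in LT was 1.70, 1.83 and 2.42 at 0 h and 1.01, 0.825 and 2.77 at 12 h for young mice 1, 2 and 3. The 12 h value of mouse 1 is from its library marked v1. The MPP ratios were 2.11, 1.80 and 2.67 at 0 h and 1.07, 0.957 and 1.30 at 12 h, and the ST ratios 0.989, 1.91 and 3.53 and then 0.798, 0.460 and 4.15. The ratio was lower at 12 h in all 3 mice in MPP, but in LT and ST it was higher in mouse 3. RSEM shares out reads between similar sequences, and 98.3% of the values of Rpl22l1 were not whole numbers, so its level carries that uncertainty.

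Rpl32, a large-subunit protein, had the next most regular fall. Its LT levels were 685, 1507 and 1239 CPM at 0 h and 222, 662 and 678 CPM at 12 h for young mice 1, 2 and 3. The 12 h LT value of mouse 1 is from its library marked v1, unlike its 0 h value. The ST levels were 773, 1896 and 1175 CPM and then 341, 512 and 553 CPM. Within each mouse the 12 h library was below the 0 h library, although in LT the 0 h value of mouse 1 was close to the 12 h values of the others. With the block, edgeR gave −0.87 ± 0.18, −1.16 ± 0.18 and −0.97 ± 0.18 for LT, ST and MPP (adjusted p = 0.0025, 4.3e-05 and 7.0e-04). Rpl36 and Rpl29 were also among the largest called falls in LT, at −0.86 ± 0.21 and −0.83 ± 0.15. In ST they were Rpl36 (−1.04 ± 0.21), Rplp1 (−1.01 ± 0.21) and Rpl10a (−0.99 ± 0.16), and in MPP Rpl36a (−0.96 ± 0.24), Rpl12 (−0.90 ± 0.20) and Rpl11 (−0.87 ± 0.15).

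**Figure D3:**
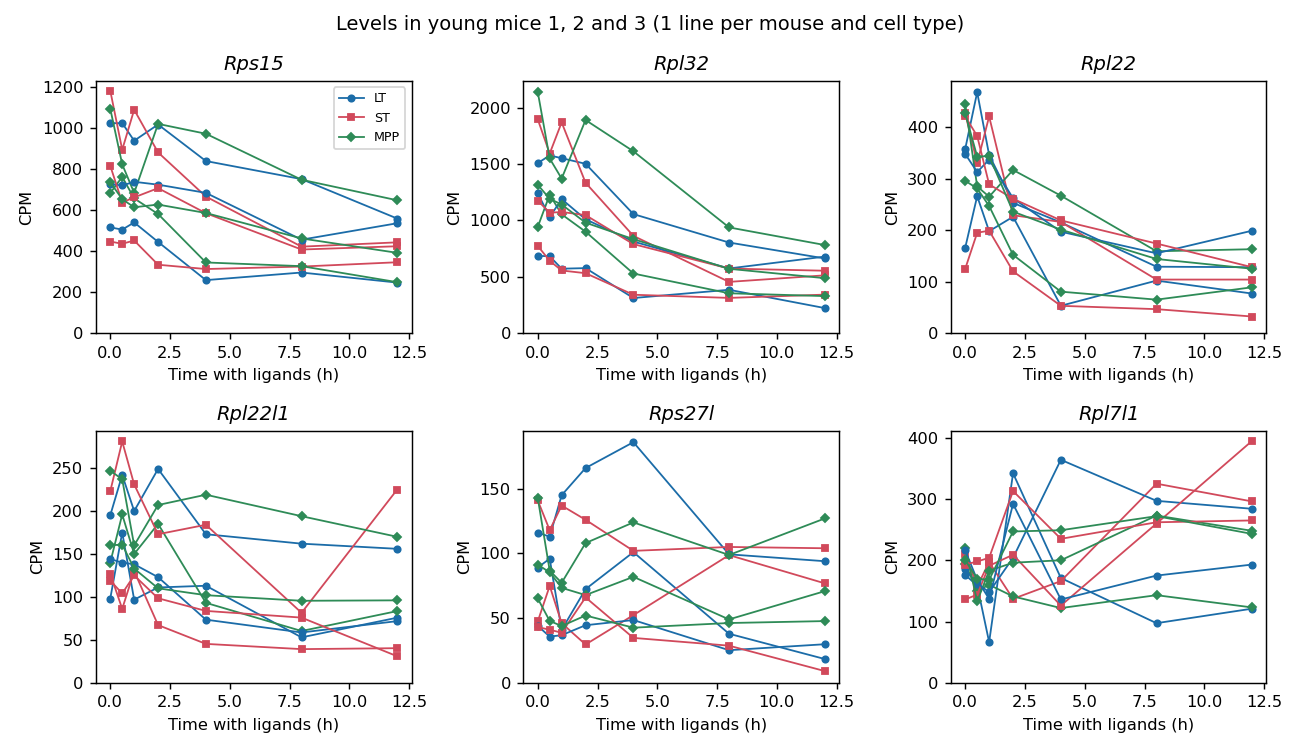
Levels in CPM (vertical axes, from 0) against hours with ligands (horizontal axes) for 6 members, with 1 line per mouse and cell type in young mice 1, 2 and 3. Rpl22 in ST falls from 125, 427 and 421 CPM to 32.2, 104 and 128 CPM, while Rpl7l1 in ST goes from 211, 136 and 193 CPM to 296, 395 and 265 CPM.

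Rpl5 and Rpl11, which form a complex with the 5S ribosomal RNA, differed in which cell types passed the test. Rpl11 went from 662 to 411, 1122 to 678 and 1031 to 631 CPM between 0 h and 12 h in LT of young mice 1, 2 and 3. For mouse 1 the 12 h library is the one marked v1. With the block, edgeR's adjusted p for Rpl11 was 0.018 in LT (−0.56 ± 0.16), 0.0023 in ST (−0.73 ± 0.16) and 3.1e-04 in MPP. Rpl5 fell in LT (−0.54 ± 0.16, adjusted p = 0.03), while its values of −0.38 ± 0.17 in ST (0.16) and −0.50 ± 0.16 in MPP (0.062) did not pass. Whether the 2 genes differ between cell types was not tested.

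The stalk of the large subunit, which recruits elongation factors, is formed by Rplp0, Rplp1 and Rplp2. Rplp0 was the member with the highest mean level, 3668 CPM, and among the least changed in LT. In LT of young mice 1, 2 and 3 it stood at 1810, 4346 and 4246 CPM at 0 h and at 1635, 2398 and 4031 CPM at 12 h. The drop in mouse 2 was far larger than those in mice 1 and 3. The 12 h value of mouse 1 is from its library marked v1, and its repeats at 0 h stood at 2487 and 1272 CPM. In ST of mouse 1 at 1 h, Rplp0 was at 2015 CPM unmarked and at 2664 and 3355 CPM marked. So the size of the drop in mouse 1 is uncertain. With the block, edgeR gave −0.11 ± 0.13, −0.41 ± 0.13 and −0.32 ± 0.13 for LT, ST and MPP (adjusted p = 0.72, 0.039 and 0.17), so Rplp0 passed in ST. Without young mouse 2 the LT value was 0.03. Rplp1 fell in ST and MPP (−1.01 ± 0.21 and −0.75 ± 0.22), and had −0.50 ± 0.22 in LT (adjusted p = 0.15). Rplp2 was called in no cell type, with −0.57 ± 0.21, −0.57 ± 0.21 and −0.52 ± 0.21.

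Among other members with known roles, Rpl3, which lies at the peptidyl transferase centre, fell in all 3 cell types, with changes of −0.70 ± 0.15, −0.84 ± 0.15 and −0.77 ± 0.15. Rpsa, which doubles as a laminin receptor precursor, fell with changes of −0.60 ± 0.18, −0.91 ± 0.17 and −0.70 ± 0.18. Rpl38, a protein tied to the translation of Hox messages, fell with changes of −0.81 ± 0.24, −0.79 ± 0.24 and −0.79 ± 0.24. Rpl13a, a component of an interferon-induced translation inhibitor complex, fell with changes of −0.50 ± 0.14, −0.73 ± 0.14 and −0.54 ± 0.14. These are changes from edgeR with the block, in the order LT, ST and MPP. Rps4x, the X-linked small-subunit member, fell with changes of −0.56 ± 0.16, −0.64 ± 0.16 and −0.55 ± 0.16.

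Members often studied in disease or signalling were less uniform. Rps19, mutated in Diamond-Blackfan anaemia, passed in no cell type, with changes of −0.38 ± 0.20, −0.52 ± 0.20 and −0.34 ± 0.20 in LT, ST and MPP. Rps14, lost in the del(5q) syndrome, fell in ST alone (−0.78 ± 0.23, edgeR adjusted p = 0.026), and its values were −0.22 ± 0.24 in LT and −0.45 ± 0.23 in MPP. Rps6, the substrate of the S6 kinases, also passed in ST alone (−0.47 ± 0.13, adjusted p = 0.019), with −0.26 ± 0.13 in LT and −0.41 ± 0.13 in MPP. Rpl7 fell in LT and ST (−0.41 ± 0.12 and −0.39 ± 0.12), and Rpl41, the smallest protein of the set, in ST and MPP (−0.63 ± 0.18 and −0.61 ± 0.18). Rpl39, in the exit tunnel, fell in ST (−0.98 ± 0.25). Rpl10, which completes the large subunit in the cytoplasm, had −0.30 ± 0.15, −0.36 ± 0.15 and −0.14 ± 0.15, and passed in none. That a member passed in 1 cell type and not another does not show a difference between them: the late change in LT minus that in MPP was called for 0 of 81 members by edgeR with and without the block (0% of all genes each) and by DESeq2 (1.54% of all genes), with 0 at an unadjusted p under 0.05 in edgeR without the block (1.89% of all genes) and a median of 0.06.

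Rpl7l1, a paralog of Rpl7 known from ribosome assembly in the nucleolus, was the member that stood outside the pattern in every cell type. In ST it was at 211, 136 and 193 CPM at 0 h and at 296, 395 and 265 CPM at 12 h in young mice 1, 2 and 3. The LT levels were 176, 185 and 216 CPM and then 121, 284 and 193 CPM, and the MPP levels 194, 220 and 200 CPM and then 123, 248 and 243 CPM. All 3 mice were higher in ST, but in LT only mouse 2 was higher and in MPP mouse 1 was lower. In LT the 12 h value of mouse 1 is from its library marked v1, unlike its 0 h value. The changes with the block, 0.12 ± 0.29, 0.56 ± 0.29 and 0.12 ± 0.29, did not pass edgeR's test (adjusted p = 0.92, 0.27 and 1.00).

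Rps27l, a paralog of Rps27 and a known p53 target, scattered between mice: in ST its level was 47.4, 141 and 43.1 CPM at 0 h and 76.9, 104 and 9.08 CPM at 12 h for young mice 1, 2 and 3. Its changes with the block were −0.38 ± 0.38, −0.07 ± 0.39 and −0.28 ± 0.38, and those of Rps27 were −0.41 ± 0.34, −0.69 ± 0.34 and −0.61 ± 0.34. Neither gene passed in any cell type. Rps4y2, which RefSeq lists as a synonym of the transcribed pseudogene Rps4l, was low and erratic, at 0 to 34.4 CPM over all libraries. Rpl30 and Rpl34 had the widest errors of the rest, with LT changes of −2.22 ± 1.00 and −1.39 ± 0.73, and 94.2% and 100% of their values were not whole, so their levels are uncertain.

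Across the 108 libraries the members rose and sank together to different degrees. The correlation of a member's log2(CPM + 1) with the mean of the other members was among the highest for Rps15 (r = 0.98), Rpl23a and Rpl32 (0.97 each) and Rps18 (0.96). It was lowest for Rpl7l1 (−0.04), Rps4y2 (0.07), Rps29 (0.42), Rpl30 (0.49) and Rps27l (0.56). These are descriptions over libraries that share mice, depth and normalisation, and libraries of 1 mouse are not independent. Rps15, a small-subunit protein next to the decoding site, shows the common course: in ST it stood at 446, 1181 and 815 CPM at 0 h, at 312, 665 and 584 CPM at 4 h, and at 345, 442 and 423 CPM at 12 h. The mice were far apart at 0 h and close at 12 h. Rps15 fell in ST and MPP (−0.73 ± 0.19 and −0.62 ± 0.19), and had −0.51 ± 0.19 in LT (edgeR with the block, adjusted p = 0.086).

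Levels differed between members also when taken per length. Per kilobase of the principal transcript, the highest mean was that of Rps4x with 3037 CPM per kb, the median member had 1190 and the quartiles were 783 and 1687. The lowest were Rpl34 (46.7), Rpl30 (60.0) and Rpl7l1 (141 CPM per kb). The summed counts of small-subunit members were 0.62 to 0.79 of those of large-subunit members over all libraries, with a median of 0.70. At 0 h in young mice the ratio was 0.65 to 0.71 in LT, 0.67 to 0.74 in ST and 0.69 to 0.72 in MPP, and the late medians of the subunits were close, −0.46 and −0.54 in LT, −0.70 and −0.76 in ST and −0.49 and −0.56 in MPP for small and large.

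Without ligands the shares moved less. In LT, young mouse 4 had 7.17% at 0 h and 5.66% at 8 h, and old mouse 4 had 9.63% and 8.68%. Their ST shares were 6.85% and 6.33%, and 9.46% and 9.06%, and their MPP shares 7.40% and 5.90%, and 10.3% and 8.56%. At 8 h these libraries kept 78.9% to 95.7% of their own 0 h share, while the 12 libraries with ligands kept 46.1% to 65.1%, with no overlap. Per library at 8 h, 76 to 81 members were lower with ligands, with medians of −0.56 to −1.17, and 55 to 76 were lower without, with medians of −0.06 to −0.35.

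The change over 2, 4 and 8 h with ligands (4 mice) minus that without (2 mice) had member medians of −0.29, −0.46 and −0.31 for LT, ST and MPP, with 76, 77 and 77 members negative, beside −0.02, 0.07 and 0.17 over all genes. edgeR's quasi-likelihood test called 0 of 81 members in each cell type, where it called 0.0278%, 0.0486% and 0.0833% of the 14401 genes tested. Unadjusted p was under 0.05 for 0 members in each, against 3.03%, 3.88% and 2.47% of all genes. DESeq2 called 0 members (0.819%, 1.14% and 0.764% of all genes), and with the block edgeR called 0 (0.0833%, 0.167% and 0.201%). In the fit with the block 6, 33 and 6 members had an unadjusted p under 0.05, against 4.21%, 5.01% and 3.54% of all genes. Counted within mice, 69, 77 and 79 members were below 0 h in each of the 4 mice with ligands (33.8%, 33.0% and 43.0% of genes with 10 CPM or more), and 58, 48 and 45 in both mice without (46.2%, 47.5% and 52.2%). The largest differences in ST were those of Rpl32 (−1.02 ± 0.55) and Rpl7l1 (0.87 ± 0.45). Rpl22 went from 251 to 102 CPM over 8 h in LT of young mouse 4 and from 323 to 280 CPM in old mouse 4. So both mice without ligands ended below their start, young mouse 4 by far more than old mouse 4.

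**Figure D4:**
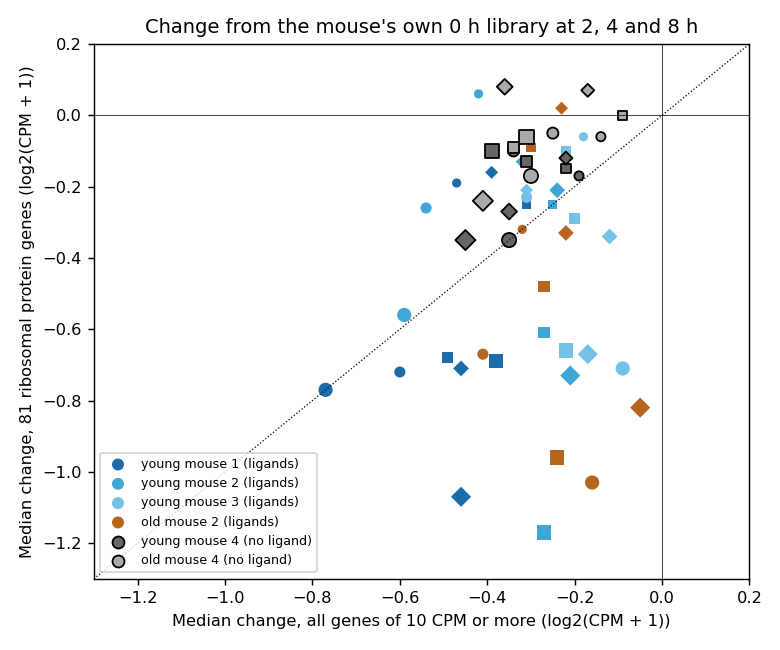
Median change from each mouse's own 0 h library in log2(CPM + 1) at 2, 4 and 8 h for the 81 members (vertical axis) against all genes with a mean of 10 CPM or more (horizontal axis); circles are LT, squares ST and diamonds MPP, larger symbols later times, and black outlines mice without ligands. The libraries without ligands have member medians between −0.35 and 0.08, while those with ligands at 8 h lie between −0.56 and −1.17.

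Old mouse 2, not used in the late comparison above, gave the same picture with ligands. Its share at 0 h and 12 h was 10.9% and 6.77% in LT, 12.8% and 5.92% in ST, and 12.3% and 7.16% in MPP. Its median member changed by −0.76, −0.88 and −0.64 in log2(CPM + 1) over 4 to 12 h, with 79, 80 and 80 members lower, against −0.25, −0.48 and −0.15 for genes with 10 CPM or more. Rpl7l1 was not lower in any of its cell types, and Rps29 was not lower in LT. The LT libraries of this mouse at 0, 4 and 8 h carry v1 in their column names, a mark the labels do not explain, while the 12 h value sums a v1 and an unmarked library, in which Rps29 stood at 80.9 and 557 CPM. Within the v1 libraries alone, an alternative chosen after seeing the data, Rps29 was at 150 and 157 CPM at 0 h and at 114, 75.2 and 80.9 CPM at 4, 8 and 12 h. There 80 members were lower, all but Rpl7l1, and the median member changed by −0.92 (−0.27 for genes with 10 CPM or more). As a single animal it carries no error.

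At 0 h the differences of the members between the 3 cell types were small. In young mice the median differences were −0.15 for LT minus MPP (77 of 81 negative), −0.14 for ST minus MPP (75 negative) and −0.02 for LT minus ST (55 negative). Over all genes tested the medians were −0.03, 0.01 and −0.02, with 52.3%, 49.3% and 51.6% of genes negative. edgeR's quasi-likelihood test called 0 members in all of these contrasts, and 0% of all 11568 genes tested, so the lack of calls does not show equal levels. Unadjusted p was under 0.05 for 0 members in each, against 2.65%, 1.00% and 2.79% of all genes for LT minus MPP, ST minus MPP and LT minus ST. With the block it was under 0.05 for 11, 9 and 0 members, against 5.27%, 3.09% and 4.37% of all genes. DESeq2 called 0 (0.242%, 0.00864% and 0.251% of all genes). In old minus young mice the median was 0.16 in LT, 0.35 in ST and 0.26 in MPP, with 60, 79 and 77 members positive. Of all genes 49.5%, 51.8% and 53.2% were negative. The LT libraries of old mouse 2 at 0 h carry v1 in their names. Members under 500 nucleotides had a median of −0.21 in LT and the others 0.25, against 0.41 and 0.34 in ST and 0.32 and 0.22 in MPP. The part of the mark in the LT values was not tested. There 0 members and 0% of the 12983 genes tested were called by edgeR, 0 members had an unadjusted p under 0.05 (3.39%, 4.24% and 0.431% of all genes), and DESeq2 called 0 (0.146%, 0.470% and 0.0308% of all genes). Only 2 old mice were compared with 4 young mice.

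Short members differed between sets of libraries, and the sets differ in part with the ligands. Principal transcripts ran from 271 nucleotides (Rps28) to 3706 (Rps20) over the 80 members with a length, and 18 were shorter than 500. Of the members' counts in unmarked libraries, those 18 took 9.29% to 15.2% for young mouse 1, 9.73% to 12.6% for mouse 2, and 6.31% to 7.44% for mouse 3. For old mouse 2 they took 9.59% to 13.1%. For the mice without ligands they took 7.34% to 8.65% (young mouse 4) and 7.73% to 8.63% (old mouse 4). These lay below young mice 1 and 2 and old mouse 2, and near young mouse 3, all with ligands. In the 11 libraries whose column name carries v1 or v2 they took 4.74% to 7.19%, and these libraries came only from young mouse 1 and old mouse 2. Repeat libraries of 1 sample show the gap directly: Rps29 in ST of young mouse 1 at 1 h was at 1531 CPM in the unmarked library and at 78.1 and 97.4 CPM in those marked v1 and v2. The late change hardly differed by length: the medians of short and other members were −0.50 and −0.50 for LT, −0.80 and −0.72 for ST, and −0.56 and −0.54 for MPP. Without the marked libraries, the block called 24, 59 and 37 members lower in LT, ST and MPP, and 5.35%, 6.32% and 3.56% of all genes.

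**Figure D5:**
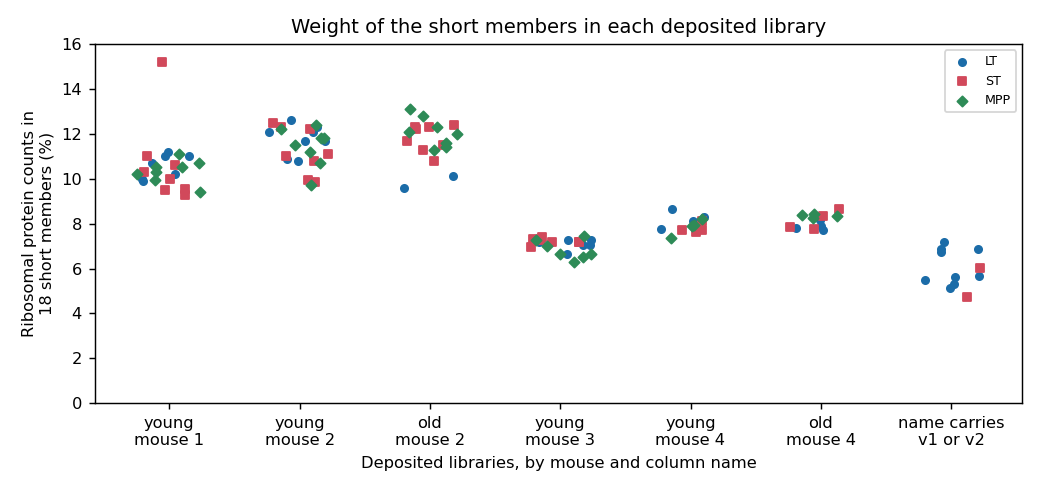
Percentage of each deposited library's ribosomal protein counts in the 18 members with a principal transcript under 500 nucleotides (vertical axis), by mouse and for the libraries marked v1 or v2 (horizontal axis); each point is 1 library and its symbol the cell type. Young mouse 3 lies at 6.31% to 7.44% and the marked libraries at 4.74% to 7.19%, below young mouse 2 at 9.73% to 12.6%.

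Other genes of the same machinery were taken from lists. Of 15 TOP translation factors, 14 were negative in each cell type in the late comparison, with medians of −0.53, −0.47 and −0.47. With the block, Pabpc1 (−0.73 ± 0.19), Naca (−0.56 ± 0.16), Eef1b2 (−0.66 ± 0.21) and Eif4b (−1.17 ± 0.37) fell in LT, Eef1a1 (−0.39 ± 0.13) and Naca (−0.54 ± 0.16) in ST, and Nap1l1 (−0.95 ± 0.26) in MPP. Of 5 further cytosolic ribosomal proteins whose names fall outside the symbol pattern, 4 were tested, with medians of −0.33, −0.55 and −0.28. Of these, Gnb2l1 (−0.73 ± 0.21), a scaffold on the small subunit, fell in ST, and Fau had −0.27 ± 0.16, −0.41 ± 0.16 and −0.18 ± 0.16 and did not pass. The 76 mitochondrial ribosomal proteins had medians of −0.60, −0.39 and −0.46 and 0 calls with or without the block.

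The 24 genes of ribosome assembly had lower medians than the ribosomal proteins, −0.99, −0.97 and −0.92. With the block, Ncl and Npm1, nucleolar chaperones, fell in LT, ST and MPP. The changes of Ncl were −1.19 ± 0.27, −1.18 ± 0.27 and −1.04 ± 0.27, and those of Npm1 −1.01 ± 0.19, −0.70 ± 0.19 and −0.92 ± 0.19. Among 16 regulators of ribosomal protein synthesis the medians were 0.00, −0.08 and −0.13. Of these, Mycn and Myc, a known activator of ribosome genes, fell with the block in all 3 cell types, with changes of −2.91 ± 0.77, −3.65 ± 0.76 and −2.55 ± 0.76 for Myc. Of 7 genes of the Mdm2 and p53 surveillance pathway, Cdkn1a, the p53 target that halts the cell cycle, rose in each cell type, by 5.34 ± 0.87, 4.01 ± 0.80 and 3.23 ± 0.76 with the block. Mdm2 had 0.57 ± 0.74, 0.98 ± 0.76 and 0.97 ± 0.76 and Trp53 −0.18 ± 0.31, −0.19 ± 0.31 and −0.01 ± 0.31, and neither passed.

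Markers of other blood cells moved in part with time. The summed level of 8 of 8 erythroid genes was 97.4 to 2633 CPM in young libraries at 0 h and 28.9 to 932 CPM in the late libraries with ligands, and that of 6 of 7 T and NK cell genes was 10.7 to 229 and 0 to 85.7 CPM. The 7 B cell genes summed to 39.9 to 496 and 16.9 to 361 CPM. None of these genes was at 0 throughout, and their part in the lower ribosomal protein levels was not tested. The late granule genes, 6 of 6 present, summed to 98.8 to 64446 CPM at 0 h and 50.5 to 78555 CPM late, and with the block Lcn2 rose in ST and MPP and S100a8 in ST. In young mouse 3, whose granule genes were the lowest of the mice with ligands (0.0240% of LT counts at 0 h and 0.00505% at 12 h), 81 members in LT, 80 in ST and 80 in MPP were lower late.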

How the data were processed

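The deposited values are expected counts per gene from RSEM on mm9, per the submitters' processing notes; its version and annotation are not given in the sources used here. The authors' expected counts were rounded. Of 127 deposited libraries, 6 with 7 to 41 counts were dropped (minimum 1000), and technical replicates of a sample were summed in 12 cases, giving 108 mouse-level libraries. Of all values 89.5% were whole numbers, but only 34.3% of those of the members, so reads shared between copies were split. CPM uses the library total.

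Differences were tested on all genes with edgeR 4.0.16 (TMM, quasi-likelihood test, Benjamini-Hochberg adjustment, threshold 0.05) under R 4.3.3, and with DESeq2 1.42.0 as an alternative. The labels' mouse numbers mark the same animal, so a fit with the mouse as replicate block was added. The mean correlation of residuals was 0.19, 0.07 and 0.41 within young mice 1, 2 and 3, against −0.13, −0.05 and −0.21 to libraries of other animals. Values within a mouse use log2(CPM + 1). The late LT test without the block was tried on simulated data with 200 changed genes and no differences between mice. The fit with the block was not tried in this way.

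Members and gene lists were chosen with earlier results of these data known. Named are members called (all if 6 or fewer, otherwise the 5 largest in each direction), a set of paralogs and well-known members, the 5 most and 5 least like the others, and 3 on either side of 10 CPM; some genes that the rule picks are not reported here. Transcript lengths are from GENCODE M21 and promoters from RefSeq on GRCm38.p6; coordinates of mm9 were not used.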

Additional observations from a re-analysis of the deposited data

Results flagged for a closer look

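At 0 h, 81 groups of 4 young mice in LT, ST and MPP were looked at for a mouse far from the others. The groups were the members' share, the ratio of the subunits and a chosen set of members, not every member. Of them 6 were found, where chance alone gives about 1 in 20 groups. In LT, Rplp2 was at 700 CPM in young mouse 2 (the others 402 to 419 CPM), Rpl41 at 1585 CPM in young mouse 2 (667 to 686) and Rpsa at 1006 CPM in young mouse 1 (2039 to 2144). In ST, Rplp2 was at 846 CPM in young mouse 2 (348 to 422), Rps27l at 141 CPM in young mouse 2 (43.1 to 50.5) and Rpsa at 1045 CPM in young mouse 1 (2251 to 2334).

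Pairs of member and cell type were looked at for a chosen set of members, not for all of them. Of 75 such pairs, 4 moved down in every mouse with ligands and up, or not down, in both mice without. The measure was the mean log2(CPM + 1) change over 2 to 8 h. The difference was not tested. The share of all genes that meet the same rule was not counted, so the 4 cannot be set against it. For Rpl22l1 it was −0.59 in LT (−0.82 to −0.03 with, 0.12 to 0.38 without) and −0.93 in ST (−1.35 to −0.19 and 0.23 to 0.28). For Rps27 in MPP it was −0.61 (−0.81 to −0.16 and 0.13 to 0.16), and for Rpl13a in LT −0.50 (−0.62 to −0.27 and 0.00 to 0.11).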

How the results depend on the processing

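The number of members called late was 0 in LT, ST and MPP with all libraries treated as independent. With the mouse as replicate block it was 35, 58 and 40, and with the block and DESeq2's size factors 36, 62 and 61. With the block and without libraries marked v1 or v2 it was 24, 59 and 37. With the block and without libraries under 8000 detected genes it was 50 in ST and 36 in MPP. That minimum took out all late LT libraries of young mouse 1 and left young mouse 3 alone at 8 and 12 h. So no LT count is given for it, and its LT changes compare unlike sets of mice. DESeq2 called 1, 6 and 3, and DESeq2's size factors in edgeR gave 1 in LT and 1 in ST. Leaving out 1 young mouse gave 0 in LT, 0 to 5 in ST and 0 to 1 in MPP without the block, and with it 19, 48 and 8 (mouse 1), 1, 3 and 4 (mouse 2) and 23, 22 and 4 (mouse 3). The all-gene shares for DESeq2's size factors in edgeR and for the fits without 1 mouse, both without the block, are not given here. The block and the other settings changed no call in the other comparisons. The settings with the block beyond the plain block, the v1 or v2 marks and the 8000-gene minimum were chosen after seeing the data. DESeq2's size factors moved the median of all genes from −0.26 to −0.38 in MPP late and from −0.18 to −0.29 in ST early. Single genes changed sign as follows. Without 1 mouse, Rpl7l1 in LT was −0.29 to 0.39 (−0.30 with the block and without young mouse 2). Rps27l was −0.68 to 0.01 in LT and −0.35 to 0.25 in ST (0.07 without young mouse 3), and in ST 0.12 with 1 technical replicate in place of the sum, and 0.10 and 0.23 with the block and without young mouse 2 or 3. Rplp0 in LT was 0.35 without libraries under 8000 detected genes (0.16 with the block) and −0.23 to 0.04 without 1 mouse (0.03 with the block and without young mouse 2), and Rps6 in LT was 0.11 without those libraries. Shares without 1 mouse were 7.75% to 10.4% at 0 h and 5.30% to 7.40% late in LT, 7.91% to 10.9% and 5.05% to 6.49% in ST, and 9.07% to 11.2% and 5.60% to 7.67% in MPP. Depth limits the low members: in the library of 990831 counts (young mouse 3, ST, 12 h) Rps27l was at 9.08 CPM, Rps4y2 averaged 13.7 CPM, and Rpl30 was at 0 in 5 libraries.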
